A study of Mus musculus with 44 samples.

Results

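The comparison described here is that of tumour cells against a sham injection in control mice at the 2 light-phase timepoints. It takes 16 of the 44 libraries of the study. The draining inguinal lymph nodes were taken 24 h after the injection, and the CD45+ cells with CD11c and high MHCII in them were sorted for RNA. The numbers of libraries match the numbers of mice that the methods give. Of these, 10 libraries came from mice of the genotype labelled WT that received B16-F10-OVA (5 at ZT3, 5 at ZT9), and 6 from mice of the genotype labelled WT that received PBS (3 at ZT3, 3 at ZT9). ZT is the time in hours after lights on, and the labels place each sample at one timepoint. The mice were females of 8 to 12 weeks. Whether the control mice carried a floxed Arntl allele without Cre is not given in the sources used here. The study describes 2 independent experiments for the mice given tumour cells, but no label assigns a mouse to one of them, so that the experiment could not enter the fit. B16-F10-OVA is a mouse melanoma line that expresses ovalbumin as a model antigen. In some sentences the 6 light-phase libraries labelled KO (Clec9a-cre:Bmal1flox mice with B16-F10-OVA, 3 at ZT3 and 3 at ZT9) are set beside these, since the mice received the same cells.

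Dendritic cells (DCs) take up antigen in the skin and carry it through lymphatic vessels to the draining node, where they present peptides on MHC molecules to T cells. Cells that have made this journey carry a mature programme with the chemokine receptor CCR7, the actin-bundling protein fascin and high surface MHC class II. Cells resident in the node include conventional DCs of type 1 (cDC1, which cross-present antigen to CD8+ T cells) and of type 2 (cDC2, which prime CD4+ T cells), and CD11c and MHC class II are also found on some plasmacytoid DCs, macrophages and lymphoid cells.

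The values are CPM, read counts scaled to the library total, and all differences are tumour minus sham on the log2(CPM + 0.5) scale, averaged over ZT3 and ZT9. Depth differed between the groups compared. The control tumour libraries held 21126495 to 27557466 reads on genes (median 24242530, n = 10) and the sham libraries 28003328 to 45243720 (median 38688492, n = 6), and the ranges did not overlap. Treatment and depth therefore cannot be told apart in this comparison. The first principal component of the 16 libraries (32.2% of the variance) placed all tumour libraries at 6.84 or above and all sham libraries at -29.2 or below. The second (13.2%) placed tumour ZT3 replicate 3 at -65.4, whereas the other 15 libraries lay between -20.98 and 20.01. Counts are given with and without this library where they differ by much.

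**Figure D1:**
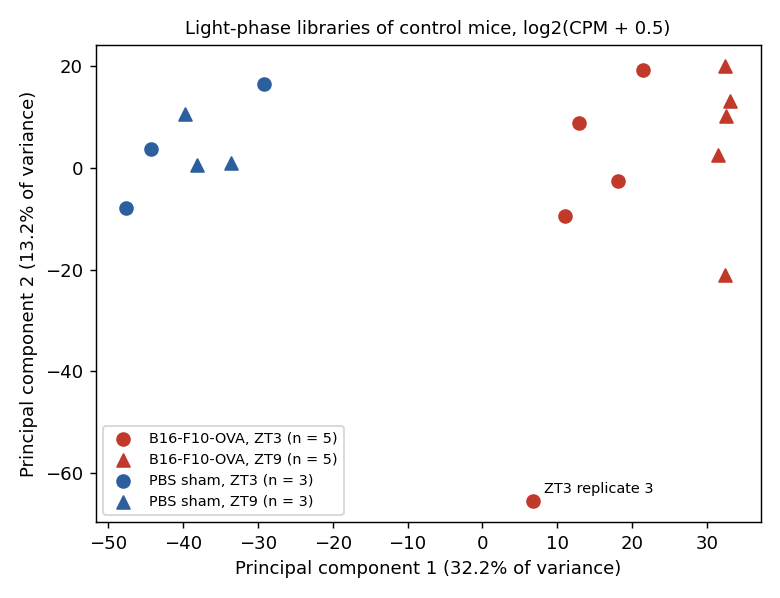
The first 2 principal components of the 16 light-phase libraries of control mice, computed on log2(CPM + 0.5). Tumour libraries (red) lie to the right of sham libraries (blue) at ZT3 (circles) and ZT9 (triangles), and tumour ZT3 replicate 3 lies apart at -65.4 on the second component.

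Of 11963 genes tested, 2817 (23.5%) differed between tumour and sham mice at an adjusted p under 0.05 in limma. Of these, 873 (7.3% of the genes tested) were higher and 1944 (16.3%) lower with tumour cells. At a difference of 2-fold or more, 843 genes (7.05%) remained, 176 higher and 667 lower. The CPM of the 10 tumour libraries and of the 6 sham libraries did not overlap in 804 genes (6.72%), 131 of them higher (1.1%) and 673 lower (5.63%). The median difference over all genes was -0.04. Counts in the gene lists below are to be read against the shares over all genes, 7.3% higher and 16.3% lower. Scaling by median-of-ratios size factors in place of library size gave 2904 genes, of which 43% were higher, in comparison with 31% in the CPM as deposited. Without tumour ZT3 replicate 3, 3459 genes were called, 1391 higher and 2068 lower. The lower genes included genes known from lymphoid cells, mast cells and phagocytes, chemokine receptors, immediate early genes and genes of mitosis. The higher genes included part of the mature migratory DC programme and of cholesterol synthesis.

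Of 14 conventional DC genes 2 were higher and 3 lower (3 higher and 6 lower without tumour ZT3 replicate 3). Over all genes tested, 7.3% were higher and 16.3% lower. The DC genes given next were found in both groups, and their levels differed widely from gene to gene. Ccr7, the receptor that guides DCs to the node, had 4698 to 6342 CPM (median 5471) in the tumour libraries and 5074 to 6200 CPM (median 5717) in the sham libraries. These ranges overlapped almost fully (log2 difference -0.06 ± 0.08 (SE), adjusted p = 0.65, n = 10 and 6). Flt3, the growth factor receptor of the DC lineage, had means of 626 ± 95.9 CPM (SD, n = 10) and 622 ± 36.4 CPM (SD, n = 6; adjusted p = 0.97). Zbtb46, a transcription factor of conventional DCs, had means of 161 ± 36.8 and 141 ± 22.7 CPM (adjusted p = 0.58). Itgax, which encodes CD11c, had 23 to 60.3 CPM with tumour cells and 43.1 to 69.5 CPM after sham injection, a difference that did not pass the test (adjusted p = 0.13). Flt3 and Zbtb46 were looked up after the values were seen, as a check of the cell type.

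The co-stimulatory ligands that T cells read through CD28 were not called in the average over both timepoints. Cd80 had 9.49 to 18.9 CPM in the tumour libraries (median 15.9) and 10.4 to 20.8 CPM in the sham libraries (median 14.5), with a log2 difference of 0.03 ± 0.17 (adjusted p = 0.91). The 2 timepoints had opposite signs for this gene. At ZT3 the means were 16.3 ± 2.45 CPM with tumour cells and 12.1 ± 1.93 CPM after sham injection (SD, log2 difference 0.41, adjusted p = 0.22), and at ZT9 they were 14 ± 3.14 and 17.7 ± 3.01 CPM (log2 difference -0.34, adjusted p = 0.28). The test of the difference between the timepoints gave an adjusted p = 0.76 in limma (0.016 before adjustment). Cd86 had medians of 152 and 161 CPM (adjusted p = 0.99). Of the 9 genes of the B7 family list that were tested, 1 was higher and 1 lower, and neither is a B7 ligand (2 higher without tumour ZT3 replicate 3). The lower one was Btla, an inhibitory receptor (13.9 ± 3.71 against 29.1 ± 8.4 CPM, SD, adjusted p = 7.6e-04), and the higher one was its ligand Tnfrsf14 (2.65 ± 0.673 against 1.33 ± 0.684 CPM, adjusted p = 0.0073).

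Of the 30 genes of the migratory mature DC programme, 9 were higher, 2 lower and 19 not called, and the median log2 difference of the list was 0.19 (12 higher without tumour ZT3 replicate 3). Among all genes tested, 7.3% were higher and 16.3% lower. Fscn1, which encodes fascin, had 4851 to 7294 CPM with tumour cells (median 5615) and 3043 to 4912 CPM after sham injection (median 3967). The groups overlapped only at one end, and the mean was 1.44-fold higher on the log2 scale of the fit (log2 difference 0.52 ± 0.11, adjusted p = 0.0032). In the libraries labelled KO, Fscn1 had 4869 to 6240 CPM. Fabp5, a fatty acid binding protein that was chosen after its values were seen, had means of 1470 ± 452 and 944 ± 195 CPM (log2 difference 0.62 ± 0.16, adjusted p = 0.012). Nudt17, of the Nudix hydrolase family, had 887 to 1185 CPM against 780 to 904 CPM (log2 difference 0.36 ± 0.07, adjusted p = 0.002), with fractional read values in every light-phase library. The 2 lower members were Ptgds, a prostaglandin D synthase at under 1 CPM in each tumour library (log2 difference -1.02, adjusted p = 0.0076), and Samsn1, an adaptor protein (log2 difference -0.19, adjusted p = 0.044). In the light-phase libraries of control mice, Ptgds reached 1 CPM only after sham injection (0 to 2.27 CPM). It could thus pass the expression filter without the tumour libraries, and no conclusion is drawn from its call. The call of Samsn1 was lost in 13 of the 16 fits that left out 1 library, with adjusted p up to 0.11.

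MHC class II genes were mostly lower where they changed. Of the 15 genes tested in this list 7 were lower and 1 was higher, and the median log2 difference was -0.35 (10 lower without tumour ZT3 replicate 3). H2-Ab1, the class II beta chain, had 1461 to 3354 CPM in the tumour libraries (median 2093) and 2837 to 4178 CPM in the sham libraries (median 3606; log2 difference -0.73 ± 0.14, adjusted p = 0.0014). H2-DMa and H2-DMb1 encode the chaperone that loads peptides onto class II molecules. H2-DMb1 had 58.5 to 93.5 CPM with tumour cells against 120 to 197 CPM, without overlap (log2 difference -0.98 ± 0.12, adjusted p = 3.1e-05). H2-DMa had means of 74.9 ± 20.2 and 151 ± 37.4 CPM (adjusted p = 1.8e-04). In the opposite direction, H2-Eb2 had 84.6 to 129 CPM against 42.5 to 71.6 CPM (log2 difference 0.72 ± 0.12, adjusted p = 3.4e-04).

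More genes of the cDC1 and cDC2 lists were lower than higher in the tumour libraries. These lists were not divided into resident and migratory cells, and the study describes the sorted cells as migratory DCs. In the cDC1 list, 11 of 14 genes were lower and 1 was higher (median log2 difference -1.44), and in the cDC2 list 8 of 14 were lower and 1 higher (median -1.61). Xcr1, the chemokine receptor of cDC1, had 1.81 to 7.24 CPM with tumour cells (median 5.35) and 21.3 to 57.1 CPM after sham injection (median 29.6). No tumour library reached the lowest sham library (log2 difference -2.56 ± 0.24, adjusted p = 2.6e-06). Naaa, an acid amidase of cDC1, had 12.9 to 27.1 CPM against 53.4 to 98.5 CPM (log2 difference -1.96 ± 0.16, adjusted p = 7.1e-07). The 1 higher cDC1 gene was Batf3, the transcription factor on which cDC1 depend, with 140 to 246 CPM against 119 to 143 CPM (log2 difference 0.41 ± 0.11, adjusted p = 0.01). Of the cDC2 genes, Clec10a, a galactose-binding lectin, had 0.632 to 3.81 CPM against 11.7 to 27.7 CPM (log2 difference -2.63 ± 0.25, adjusted p = 2.4e-06). The 1 higher gene of this list was Esam, an adhesion molecule, with means of 63.3 ± 9.1 and 49 ± 5.97 CPM (SD, adjusted p = 0.024, and 0.07 without sham ZT9 replicate 2). Fcgr3, a low-affinity Fc receptor, had 1.93 to 6.04 CPM against 15 to 35.4 CPM (adjusted p = 6.5e-06). Sirpa, also a cDC2 marker, had medians of 105 and 109 CPM and did not pass the test (adjusted p = 0.26). Kmo, a kynurenine pathway enzyme of the conventional DC list, fell by 2.42 on the log2 scale (adjusted p = 2.2e-07). Of the 9 Langerhans cell genes tested 1 was lower, and Cd207, which encodes langerin, had medians of 18.4 and 18.6 CPM (adjusted p = 0.71).

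Of the genes of plasmacytoid DCs, 8 of 11 were lower, and of those of monocytes and macrophages 13 of 20, with none higher in either list (15 of 20 monocyte and macrophage genes without tumour ZT3 replicate 3). Siglech, a sialic acid-binding lectin of plasmacytoid DCs, had 2.27 to 10.1 CPM in the tumour libraries (median 5.57) and 39.8 to 68.1 CPM in the sham libraries (median 65.1), a 10.1-fold difference (log2 difference -3.34 ± 0.23, adjusted p = 1.2e-07). Klk1, a kallikrein of the same list, had 0.456 to 2.36 CPM against 16 to 37.2 CPM (log2 difference -3.63 ± 0.24, adjusted p = 1e-07). In neither gene did the groups overlap. Among phagocyte genes, Ly6c2, of inflammatory monocytes, had 4.77 to 26.7 CPM against 48.2 to 84.3 CPM (log2 difference -2.48 ± 0.21, adjusted p = 9.6e-07). Cd68, a lysosomal glycoprotein of macrophages, had 26.3 to 53.2 CPM against 75.7 to 132 CPM (adjusted p = 9.9e-07), and the lipid carrier Apoe had 154 to 303 CPM against 535 to 818 CPM (adjusted p = 9.9e-07). Mmp12, the macrophage elastase, was among the 8 largest decreases, with 0 to 6.54 CPM against 15.5 to 46 CPM (log2 difference -3.93 ± 0.45, adjusted p = 1.7e-05).

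Many lymphoid genes were also lower, although 9 of the 14 B cell genes tested were not called. In the cell lists, 9 of 12 NK cell genes (median log2 difference below that of every other list), 16 of 20 T cell genes (median -0.75), 5 of 14 B cell genes and 4 of 6 plasma cell genes were lower. The only higher gene in these 4 lists was Tcf7, a T cell transcription factor (170 ± 18 against 110 ± 40.6 CPM, SD, adjusted p = 0.0071). Gzma, which encodes granzyme A, had 0.0464 to 6.01 CPM with tumour cells (median 1.5) and 16.2 to 87.5 CPM after sham injection (median 29.3; log2 difference -3.95 ± 0.47, adjusted p = 2.1e-05). Ncr1, the activating NK receptor NKp46, had 0 to 3.68 CPM against 7.79 to 29.8 CPM (log2 difference -3.20 ± 0.36, adjusted p = 1.2e-05). Klrb1c, which encodes NK1.1, fell by 3.30 on the log2 scale (adjusted p = 9.8e-06). All 3 genes were separated between the groups. Of the T cell genes, Cd4 had 23.7 to 48.9 CPM against 71.8 to 99 CPM (log2 difference -1.27 ± 0.10, adjusted p = 8e-07), and Cd3e, a chain of the T cell receptor complex, had 28 to 91.7 CPM against 73.7 to 124 CPM (log2 difference -1.06 ± 0.18, adjusted p = 5.5e-04). Lat, the adaptor of T cell receptor signalling, had 14.2 to 34.9 CPM against 50.9 to 71.2 CPM (adjusted p = 2.2e-05). Of the B cell genes, the kinase Blk had 0 to 6.74 CPM against 17.8 to 37.9 CPM (log2 difference -3.07 ± 0.39, adjusted p = 4.3e-05), and the tetraspanin Cd37 had 53.8 to 68.9 CPM against 86.5 to 127 CPM (adjusted p = 4.6e-05). The B cell receptor chain Cd79a had medians of 15.2 and 19.7 CPM and was not called (adjusted p = 0.091), although it was without sham ZT9 replicate 2 (adjusted p = 0.026).

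Several of the 8 largest decreases were not in any cell type list. Mcpt4, Cma1, Cpa3 and Tpsb2, proteases stored in mast cell granules, had medians of 0.264 to 0.47 CPM in the tumour libraries and of 29 to 38.9 CPM in the sham libraries. Mcpt4 fell by 4.14 on the log2 scale (SE 0.69, adjusted p = 4.9e-04) and Tpsb2 by 4.36 (SE 0.79, adjusted p = 9.3e-04). Their groups overlapped, because the highest tumour library reached 11 CPM for Mcpt4 whereas the lowest sham library had 9.56 CPM. Il22, the cytokine of type 3 innate lymphoid cells and some T cells, had 0 to 5.81 CPM against 12.6 to 29.4 CPM (log2 difference -3.94 ± 0.39, adjusted p = 4e-06). Rora, a nuclear receptor of innate lymphoid cells that is in the clock list, had 7.91 to 19.4 CPM against 23.2 to 54.2 CPM (adjusted p = 2.9e-05).

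The CPM of each marker list was also summed within each library. The monocyte and macrophage markers summed to 819 to 1676 CPM with tumour cells, 1444 to 2716 CPM in the libraries labelled KO and 3207 to 3878 CPM after sham injection. The NK cell markers summed to 77.5 to 114.5 CPM, 122.9 to 192.5 CPM and 186.9 to 420.1 CPM in that order. The T cell markers summed to 570 to 920 CPM with tumour cells and 930.3 to 1302 CPM after sham injection, and to 708 to 965 CPM in the libraries labelled KO. The sums of the cDC1, cDC2 and plasmacytoid DC lists differed less than some single genes in them, such as Xcr1, Clec10a and Siglech. The cDC1 markers summed to medians of 956 CPM with tumour cells and 1350 CPM after sham injection, the cDC2 markers to 359 and 544 CPM, and the plasmacytoid DC markers to 947 and 1339 CPM. In the libraries labelled KO these medians were 956, 436 and 916 CPM. The cDC1 and plasmacytoid DC sums thus lay at the level of the control tumour libraries. Irf8 is in both of these lists, so that their sums are not separate measures of the cell types. The share of Irf8 in these sums is not reported here. Langerhans cell markers overlapped between the groups (5687 to 9272 CPM and 6046 to 8140 CPM), and so did the conventional DC markers. Cd207, with a median of 18.4 CPM in the tumour libraries, was a small part of the Langerhans cell sum. The part of these markers in the gene lists was not tested. Of 3 melanoma genes tested, the 1 lower was Mitf, a transcription factor of pigment and mast cells, with medians of 1 and 2.62 CPM (adjusted p = 0.02, and 0.054 without sham ZT9 replicate 1). Melanoma markers summed to 1.37 to 4.06 CPM with tumour cells and 3.61 to 10.15 CPM after sham injection. In sorted bulk samples, fewer cells of a type and less RNA per cell cannot be told apart.

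**Figure D2:**
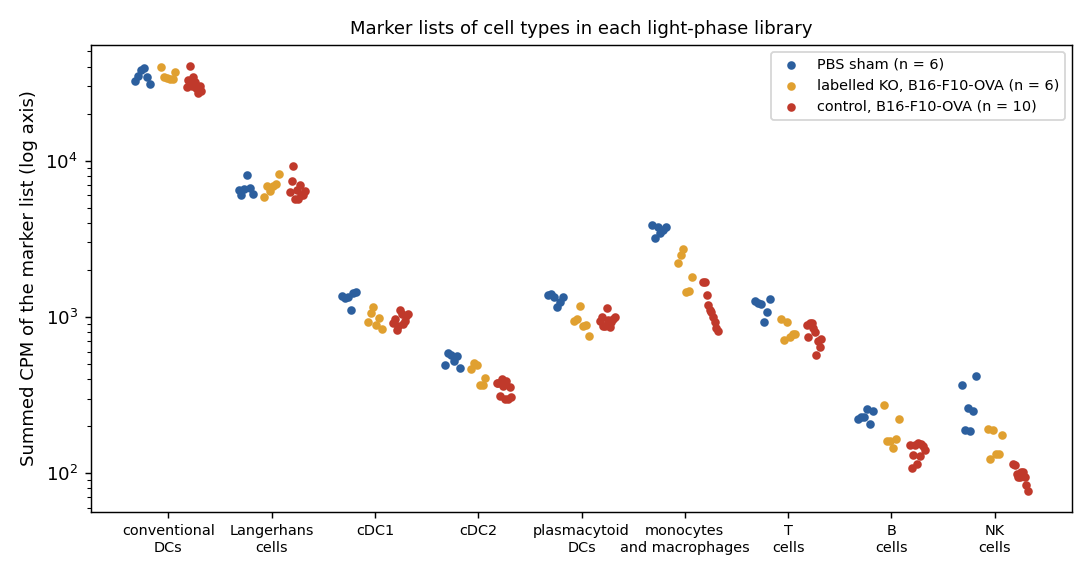
Summed CPM (log axis) of 9 marker lists in each light-phase library: PBS sham (blue, n = 6), libraries labelled KO with B16-F10-OVA (orange, n = 6) and control libraries with B16-F10-OVA (red, n = 10). The monocyte and macrophage sums lie at 819 to 1676 CPM with tumour cells and at 3207 to 3878 CPM after sham injection, whereas the Langerhans cell sums overlap.

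Chemokine receptors and C-type lectin and scavenger receptors had most of their genes lower, whereas Toll-like receptors and adaptors did not. Of the chemokine receptors, 15 of 19 were lower and none higher (median log2 difference -1.86). Cxcr6, the receptor of CXCL16 on NK cells, T cells and innate lymphoid cells, had 4.55 to 35 CPM with tumour cells (median 10.1) and 95.3 to 195 CPM after sham injection (median 142), 12.1-fold lower (log2 difference -3.60 ± 0.29, adjusted p = 6.9e-07). Ccr3, a receptor known from eosinophils, had 0 to 0.726 CPM against 2.09 to 5.97 CPM (adjusted p = 5.9e-07). In the libraries labelled KO it had 1.19 to 10.8 CPM. Ccr3 could thus pass the expression filter without the tumour libraries, and no conclusion is drawn from its call. Of the chemokine ligands, 10 of 19 were lower and 1 was higher. Ccl4, a chemoattractant of T cells and monocytes, had 1.04 to 11.1 CPM against 48.8 to 104 CPM (log2 difference -4.10 ± 0.30, adjusted p = 3e-07), and Ccl3 had 0.551 to 5.07 CPM against 11.5 to 24.3 CPM (adjusted p = 3.1e-07). Every tumour library was below every sham library for both. The higher ligand was Cxcl16, at 1862 to 2547 CPM against 1798 to 1899 CPM (log2 difference 0.32 ± 0.07, adjusted p = 0.0037).

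Of 23 C-type lectin and scavenger receptors, 20 were lower and 1 was higher (median log2 difference -1.63). Clec7a, which encodes the beta-glucan receptor dectin-1, had 8.37 to 24.4 CPM in the tumour libraries and 37.2 to 62.9 CPM in the sham libraries (log2 difference -1.74 ± 0.20, adjusted p = 1.7e-05). The higher gene, the endocytic receptor Ly75, had medians of 194 and 133 CPM (adjusted p = 0.033), a call lost in 9 of the 16 fits without 1 library (adjusted p up to 0.088, without sham ZT3 replicate 3). Of the 24 Toll-like receptor and adaptor genes, 4 were lower and 1 higher, a share of lower genes close to the 16.3% over all genes. Of the TNF family co-stimulators, 8 of 17 were lower. Tnfsf14 had 0 to 2.79 CPM against 5.11 to 12.6 CPM (adjusted p = 7.1e-05) and Tnfsf11, the RANK ligand, 0.557 to 5.38 CPM against 6.96 to 13.9 CPM (adjusted p = 6.8e-05). The receptor of the latter, Tnfrsf11a, was the higher member, with means of 279 ± 42.9 and 191 ± 41.1 CPM (adjusted p = 0.0096). Of the 22 cytokines and receptors of T cell priming, 8 were lower and 1 was higher. The higher one was Il4i1, a secreted amino acid oxidase, with means of 1864 ± 141 and 1536 ± 255 CPM (SD, adjusted p = 0.033), a call lost in 9 of the 16 fits without 1 library (adjusted p up to 0.092, without sham ZT9 replicate 2). Csf2, which encodes GM-CSF, had medians of 0.139 and 2.7 CPM (adjusted p = 3.5e-05). The immunosuppressive cytokine gene Tgfb1 had 13.4 to 22 CPM against 24.1 to 35.7 CPM (log2 difference -0.83 ± 0.10, adjusted p = 3.3e-05). Of the integrins and adhesion molecules, 10 of 30 were lower and 5 higher. Itgb2, the beta chain shared by the leukocyte integrins, had 58.7 to 94.2 CPM against 110 to 165 CPM (adjusted p = 8.8e-06), and Itgb7, which pairs with the alpha E and alpha 4 chains, had 31.9 to 74.7 CPM against 90 to 180 CPM (adjusted p = 1.4e-05).

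**Figure D3:**
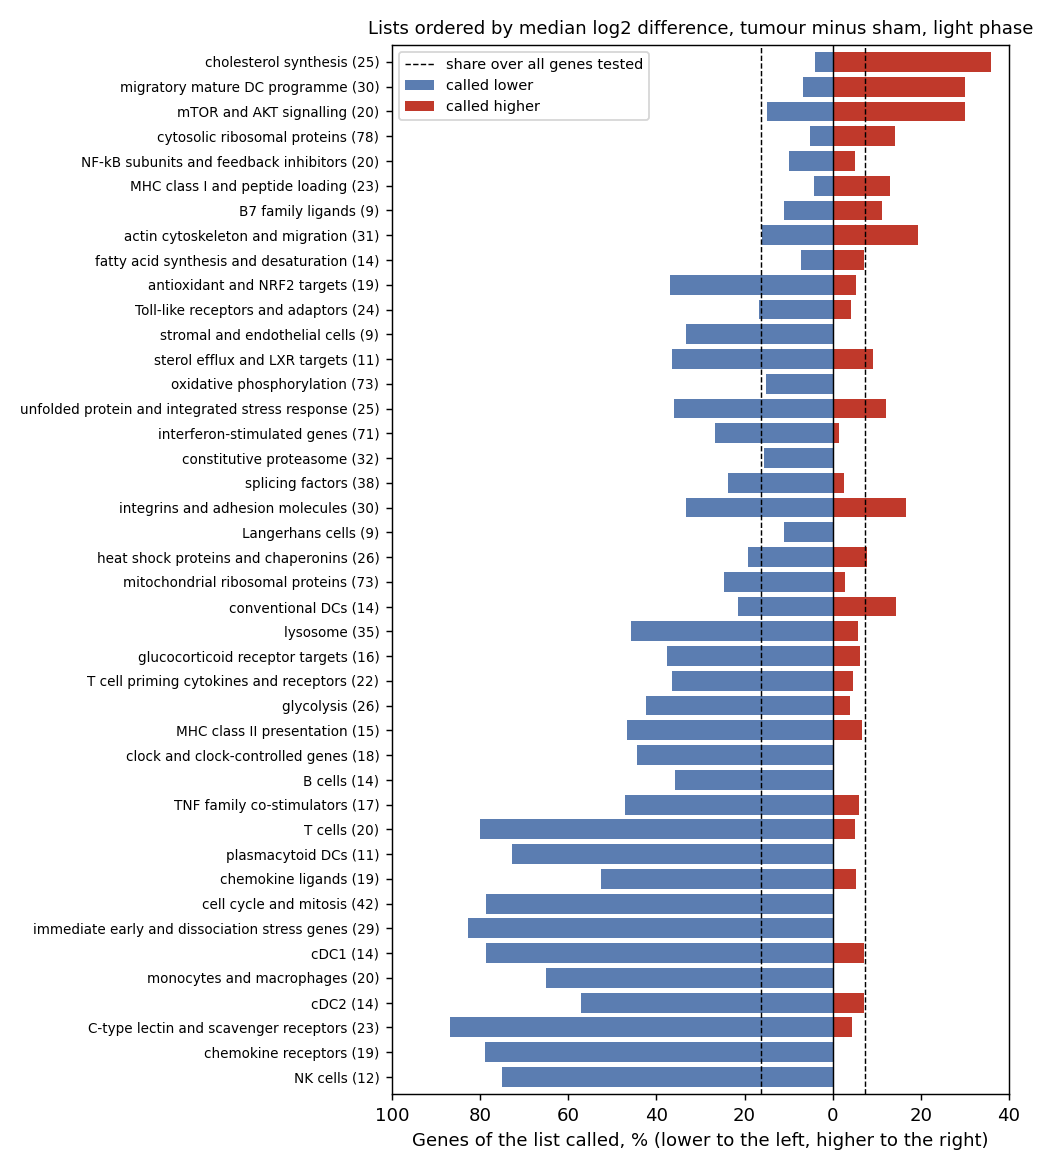
Share of the genes of each list called higher (red, to the right) and lower (blue, to the left) in tumour against sham mice in the light phase, with lists ordered by their median log2 difference and the number of genes tested in brackets. Dashed lines mark the shares over all genes tested, 16.3% lower and 7.3% higher, and the C-type lectin list reaches 20 lower of 23.

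Of 29 immediate early genes, the transcription factors and phosphatases that cells switch on within minutes of a stimulus or of tissue dissociation, 24 were lower and none higher (median log2 difference -1.08). In 18 of them the groups did not overlap, with the tumour libraries below, in comparison with 5.63% of all genes. Egr2 had 5.02 to 24.2 CPM with tumour cells (median 9.21) and 66.5 to 103 CPM after sham injection (median 75.7; log2 difference -2.93 ± 0.26, adjusted p = 1.4e-06). Egr3 had 0.71 to 2.58 CPM against 5.16 to 14.8 CPM (log2 difference -2.39 ± 0.22, adjusted p = 2.2e-06). The libraries labelled KO had 21.6 to 62.4 CPM of Egr2, below every sham library and overlapping the control tumour libraries. Fos and Nr4a1 were chosen after their values were seen. Fos, a subunit of AP-1, had 319 to 984 CPM against 1757 to 2420 CPM (log2 difference -1.82 ± 0.18, adjusted p = 3.2e-06). Nr4a1, an orphan nuclear receptor induced by antigen receptor signals, had 32.2 to 184 CPM against 324 to 486 CPM (adjusted p = 4.1e-06). Cd69, an early activation marker of lymphocytes and among the 4 smallest p of the lower genes, had 13.3 to 40.9 CPM against 108 to 159 CPM, 7-fold lower (log2 difference -2.81 ± 0.18, adjusted p = 8.5e-08). Dusp1, a MAP kinase phosphatase that also responds to glucocorticoids, had 1093 to 1671 CPM against 1955 to 2466 CPM (log2 difference -0.78 ± 0.09, adjusted p = 2.2e-05).

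Other signalling lists were compared with the 7.3% of all genes that were higher and the 16.3% that were lower. Of the 20 NF-kB subunits and feedback inhibitors, 2 inhibitors were lower and 1 gene was higher, Traf1, with means of 996 ± 99 and 811 ± 59.9 CPM (adjusted p = 0.022, and 0.057 without sham ZT3 replicate 3). Without tumour ZT3 replicate 3, 7 genes of this list were higher. Nfkbiz had 30.8 to 109 CPM against 139 to 202 CPM (log2 difference -1.65 ± 0.22, adjusted p = 5.5e-05), and Nfkbia, which encodes IkB alpha, had 2179 to 3155 CPM against 3138 to 4014 CPM (log2 difference -0.45 ± 0.10, adjusted p = 0.003). Of 71 interferon-stimulated genes, 19 were lower and 1 was higher, with a median log2 difference of -0.12 (3 higher without tumour ZT3 replicate 3). Ly6e had 107 to 309 CPM against 480 to 936 CPM (log2 difference -1.80 ± 0.16, adjusted p = 1.6e-06) and the chemokine Cxcl10 had 4.59 to 20.4 CPM against 35.9 to 69.2 CPM (adjusted p = 5.5e-06). Isg15, the higher gene, had 29.8 to 101 CPM against 25.1 to 79.8 CPM (adjusted p = 0.043), a call that was lost in 12 of the 16 fits without 1 library, with adjusted p up to 0.11. Of 25 genes of the unfolded protein and integrated stress response, 9 were lower and 3 higher (5 higher without tumour ZT3 replicate 3). Hspa5, the chaperone BiP, had 318 to 415 CPM against 547 to 619 CPM (log2 difference -0.73 ± 0.08, adjusted p = 6e-06) and the disulfide isomerase Pdia6 had 77.1 to 112 CPM against 147 to 181 CPM (adjusted p = 2.6e-05). In the heat shock list, 5 of 26 genes were lower and 2 higher, close to those shares. The higher ones were the near-identical copies Hspa1a and Hspa1b, between which reads cannot be assigned with certainty. Hspa1b had 26.3 to 435 CPM (median 71) against 14.9 to 33.9 CPM (median 22.6; log2 difference 1.84 ± 0.41, adjusted p = 0.0044).

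Of the 42 cell cycle genes, 33 were lower and none higher, with a median log2 difference of -0.89 (34 lower without tumour ZT3 replicate 3). Stmn1, a microtubule-destabilising protein, had 18.2 to 32.6 CPM with tumour cells and 46.4 to 78.3 CPM after sham injection (log2 difference -1.30 ± 0.11, adjusted p = 8.7e-07). Birc5, a subunit of the chromosomal passenger complex, had 2.03 to 5 CPM against 7.25 to 18.5 CPM (log2 difference -1.64 ± 0.16, adjusted p = 3.2e-06). Ccnb1, Ccnb2 and Plk1, the B-type cyclins and polo-like kinase of mitosis, and Mki67, the proliferation antigen Ki-67, were chosen after their values were seen. Ccnb1 had 0 to 4.17 CPM against 9.37 to 17 CPM (log2 difference -2.38 ± 0.38, adjusted p = 3.2e-04), and Ccnb2 had 1.21 to 3.99 CPM against 7.07 to 13.2 CPM (adjusted p = 2.3e-05). Plk1 had medians of 1.57 and 6.52 CPM (adjusted p = 0.0018), and Mki67 medians of 9.21 and 17.3 CPM (adjusted p = 0.006). The libraries labelled KO had 4.89 to 9.45 CPM of Ccnb1, above every control tumour library and overlapping the sham libraries.

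The promoters of mitotic genes are known for CCAAT boxes bound by NF-Y and for the cell cycle homology region. The letters CCAAT stood, on either strand, in the 250 bases before a start site of 27 of the 35 cell cycle genes with a promoter in RefSeq (77.1%), in comparison with 37.5% of the 27025 genes of that table. The letters TTTGAA stood in 10 of the 35 (28.6%) and in 18.3% of all. The promoters of Ccnb1, Ccnb2, Plk1 and Birc5 are given, since these genes were lower together in this comparison, with matches to CCAAT or TTTGAA on either strand in capitals (GRCm38.p6, 5′ to 3′ on the strand of the gene, ending at the base before the start site). Ccnb1 lies at chr13:100786487-100786736 (minus strand), Ccnb2 at chr9:70421555-70421804 (minus strand), Plk1 at chr7:122159185-122159434 (plus strand) and Birc5 at chr11:117848987-117849236 (plus strand).
Ccnb1: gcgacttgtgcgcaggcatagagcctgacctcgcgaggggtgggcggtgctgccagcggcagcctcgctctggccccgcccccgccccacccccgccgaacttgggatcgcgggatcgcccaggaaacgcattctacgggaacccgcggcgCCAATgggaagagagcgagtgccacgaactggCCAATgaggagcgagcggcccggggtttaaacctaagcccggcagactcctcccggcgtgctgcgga
Ccnb2: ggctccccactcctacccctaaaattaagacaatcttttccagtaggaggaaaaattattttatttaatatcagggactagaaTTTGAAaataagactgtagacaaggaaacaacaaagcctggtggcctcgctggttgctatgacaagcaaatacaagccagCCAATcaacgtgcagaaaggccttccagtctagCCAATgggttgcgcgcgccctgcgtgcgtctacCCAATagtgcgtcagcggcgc
Plk1: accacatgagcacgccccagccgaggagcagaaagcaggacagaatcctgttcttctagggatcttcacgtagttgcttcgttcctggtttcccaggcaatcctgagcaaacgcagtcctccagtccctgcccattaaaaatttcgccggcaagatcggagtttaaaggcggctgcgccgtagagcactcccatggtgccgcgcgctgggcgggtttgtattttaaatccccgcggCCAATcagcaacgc
Birc5: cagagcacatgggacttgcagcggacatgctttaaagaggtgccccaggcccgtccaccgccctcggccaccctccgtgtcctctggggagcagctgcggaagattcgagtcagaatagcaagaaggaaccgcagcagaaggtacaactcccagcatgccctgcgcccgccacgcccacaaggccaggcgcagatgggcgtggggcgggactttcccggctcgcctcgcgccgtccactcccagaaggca
Ccnb1 held 2 CCAAT matches, Ccnb2 held 3 and 1 of TTTGAA, Plk1 held 1, and the window of Birc5 held neither set of letters. For the immediate early genes, the cyclic AMP response element TGACGTCA stood before 3 of 25 genes with a promoter (12%) and before 1.8% of all genes, and Dusp1 (chr17:26508473-26508722, minus strand) held 1, shown here in capitals.
Dusp1: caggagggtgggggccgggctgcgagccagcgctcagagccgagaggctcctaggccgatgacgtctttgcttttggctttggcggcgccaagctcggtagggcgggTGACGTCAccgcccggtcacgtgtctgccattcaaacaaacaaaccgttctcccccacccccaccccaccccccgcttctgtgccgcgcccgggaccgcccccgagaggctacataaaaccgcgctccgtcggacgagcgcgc
These matches describe the sequence and were not tested for binding.

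**Figure D4:**
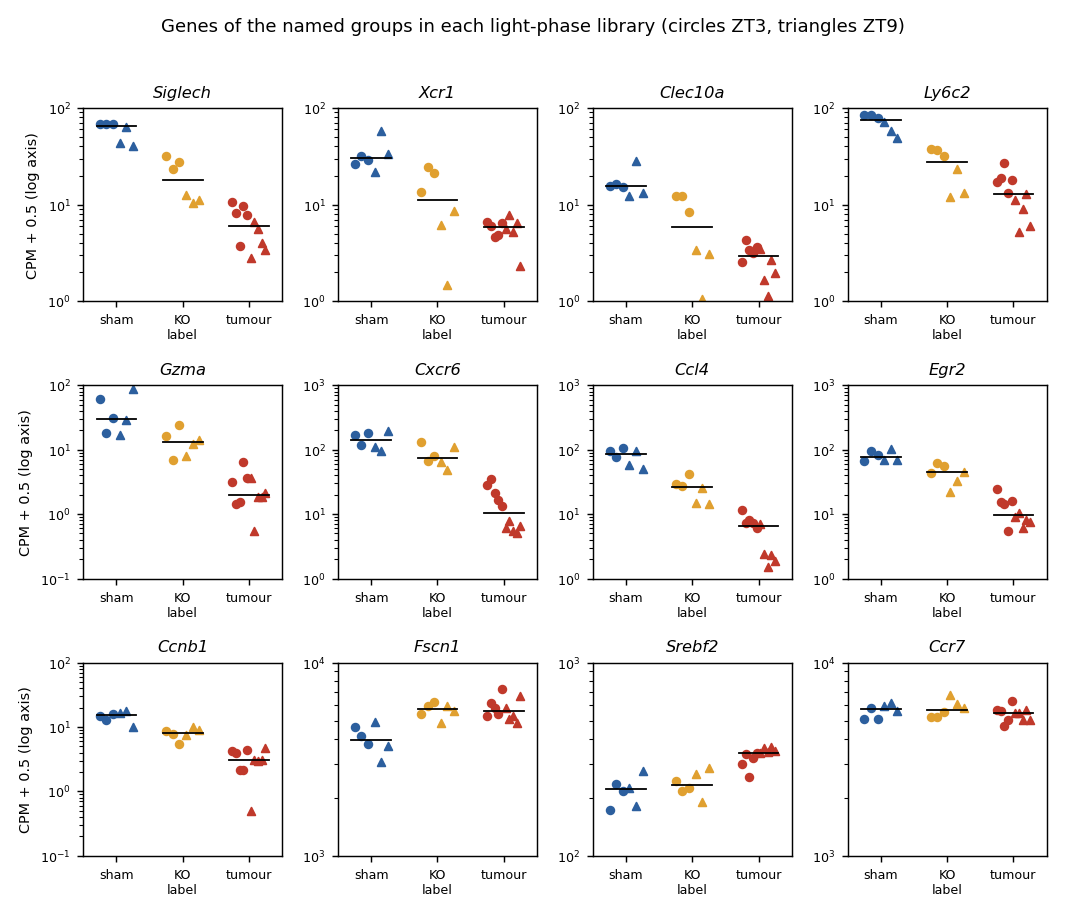
CPM + 0.5 (log axis) of 12 genes in each light-phase library for sham mice, libraries labelled KO with tumour cells and control mice with tumour cells, at ZT3 (circles) and ZT9 (triangles), with the median of each group as a line. Siglech, Xcr1, Clec10a, Ly6c2, Gzma, Cxcr6, Ccl4, Egr2 and Ccnb1 lie lower in the control tumour libraries than in every sham library, Fscn1 and Srebf2 lie higher with overlap, and Ccr7 overlaps.

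Genes of energy metabolism were read against the 16.3% of all genes that were lower. Of 26 glycolysis genes, 11 were lower and 1 was higher (median log2 difference -0.33, 2 higher without tumour ZT3 replicate 3). Ldha, which encodes lactate dehydrogenase A, had 178 to 242 CPM against 337 to 388 CPM (log2 difference -0.78 ± 0.07, adjusted p = 2.9e-06). Of 73 oxidative phosphorylation subunits, 11 were lower and none higher, a share close to that of all genes. This count rested on tumour ZT3 replicate 3, without which 22 were lower and 1 higher. Ndufa9, of complex I, had 84.6 to 107 CPM against 119 to 142 CPM (log2 difference -0.48 ± 0.07, adjusted p = 1.1e-04). Of 73 mitochondrial ribosomal proteins, 18 were lower and 2 higher, and Mrps28 had 7.08 to 12.3 CPM against 13.8 to 17.3 CPM (adjusted p = 4.7e-05). Genes encoded by the mitochondrial genome are not in the table used here. Lysosomal genes were lower in 16 of 35 cases and higher in 2. The proteases Ctsl (5.3 to 15.2 CPM against 26.1 to 41.8 CPM, adjusted p = 3.2e-06) and Ctsd (136 to 181 CPM against 218 to 358 CPM, adjusted p = 3.7e-06) were lower, whereas the membrane protein Lamp1 was higher (1817 to 2189 CPM against 1635 to 1866 CPM, log2 difference 0.25 ± 0.07, adjusted p = 0.014).

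Of 25 cholesterol synthesis genes, 9 were higher and 1 lower (median log2 difference 0.25). The shares over all genes were 7.3% higher and 16.3% lower. Srebf2, the transcription factor that switches on the pathway when sterols are scarce, had 254 to 366 CPM with tumour cells (median 340) and 172 to 274 CPM after sham injection (median 221; log2 difference 0.62 ± 0.10, adjusted p = 4e-04). Lss, which encodes lanosterol synthase, had medians of 40.5 and 28.9 CPM (log2 difference 0.58 ± 0.15, adjusted p = 0.0093). Hmgcs1, an early enzyme of the pathway that was chosen after its values were seen, had means of 208 ± 42.4 and 157 ± 23 CPM (adjusted p = 0.033), a call lost in 7 of the 16 fits without 1 library (adjusted p up to 0.083, without sham ZT3 replicate 1). The 1 lower gene was Nsdhl, a dehydrogenase of the late steps (30.3 ± 3.32 against 38.1 ± 5.39 CPM, adjusted p = 0.027, and 0.075 without sham ZT3 replicate 3). Abcg1, which exports cholesterol, had 468 to 599 CPM against 284 to 407 CPM (log2 difference 0.62 ± 0.08, adjusted p = 2.9e-05) and was the only higher gene of 11 in the sterol efflux list, of which 4 were lower (2 higher without tumour ZT3 replicate 3).

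Of the 78 cytosolic ribosomal proteins, 11 were higher and 4 lower (18 higher and 6 lower without tumour ZT3 replicate 3), and the direction differed between members. The other 63 were not called, and the shares over all genes were 7.3% higher and 16.3% lower. Rpsa, a component of the small subunit, had 1276 to 1812 CPM with tumour cells and 903 to 1092 CPM after sham injection (log2 difference 0.52 ± 0.09, adjusted p = 4.8e-04). Rps28 had 126 to 303 CPM against 88.9 to 119 CPM (adjusted p = 0.0015). In contrast, Rpl21 had 106 to 167 CPM against 271 to 360 CPM (log2 difference -1.32 ± 0.11, adjusted p = 9.1e-07) and Rpl37 had 135 to 242 CPM against 268 to 373 CPM (adjusted p = 1.4e-04). Ribosomal protein genes have many processed copies in the genome, and values of single members are uncertain to that extent. Calls also moved with transcript length. When genes were ordered by transcript length and divided into 4 equal groups, in the shortest group (293 to 2221 bases) 4.78% of genes were higher and 25.1% lower, and in the longest group (4775 to 106824 bases) 12.5% were higher and 8.03% lower. From the shortest to the longest group, the median log2 differences were -0.13, -0.08, -0.02 and 0.11. For the libraries labelled KO against sham, these medians were -0.04, -0.02, -0.03 and -0.08. The part of transcript length in the gene lists was not tested.

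For the 4 named higher genes with the smallest p and for 2 of the 4 lower ones, the libraries labelled KO, from mice given the same tumour cells, lay at or near the sham level. These libraries were also like the sham libraries in depth, with 29806373 to 55799163 reads on genes (median 36964048), and they did not overlap the control tumour libraries. The methods state that libraries were pooled for sequencing on 2 lanes. Whether the control tumour libraries were prepared or counted apart from the others is not given in the sources used here, and the part of such handling in these genes was not tested. Gapdh, the glycolytic enzyme (chr6:125161852-125166467, GRCm38.p6), had 148 to 214 CPM in the control tumour libraries, 613 to 776 CPM in the sham libraries and 536 to 655 CPM in the libraries labelled KO (tumour against sham, log2 difference -1.95 ± 0.09, adjusted p = 3.5e-09). Hmgb1, a chromatin protein (chr5:149046702-149053057), had 168 to 191, 483 to 616 and 490 to 517 CPM in the same order (log2 difference -1.58 ± 0.07, adjusted p = 3e-09). Mrgpra6, a Mas-related G protein-coupled receptor (chr7:47185717-47189416), had 15.2 to 28.9 CPM in the control tumour libraries, 0.161 to 0.502 CPM in the sham libraries and 0.275 to 0.57 CPM in the libraries labelled KO (log2 difference 4.51 ± 0.13, adjusted p = 8.2e-12, the smallest of all genes). The control tumour libraries were separated from both other groups in all 3 genes. In the light phase, Mrgpra6 reached 1 CPM only in the control tumour libraries. It could thus pass the expression filter through the group where it was high, and no conclusion is drawn from its p-value. H2-Q4, a class Ib MHC gene (chr17:35379617-35384674), had 173 to 238 CPM, 65 to 78.1 CPM and 61.7 to 80.4 CPM (log2 difference 1.57 ± 0.08, adjusted p = 1e-08). The neighbouring H2-Q2 (chr17:35342307-35346764) had 7.08 to 10.7 CPM against 0.43 to 1.83 CPM after sham injection and 0.574 to 0.893 CPM in the libraries labelled KO (adjusted p = 4.3e-08).

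The same order was seen in Bcl2a1c, an anti-apoptotic Bcl-2 relative with near-identical copies (log2 difference 2.12 ± 0.13, adjusted p = 4.5e-08), and in the ribosomal pseudogene Rplp2-ps1 (log2 difference 3.07 ± 0.19, adjusted p = 4.5e-08). Values were fractions of a read in over 50% of the light-phase libraries for 20% of the 100 genes with the smallest p and for 11.9% of all genes tested. Gapdh and Bcl2a1c were fractional in every light-phase library, Hmgb1 in 81.2% and H2-Q4 in 87.5%, but Mrgpra6 in 6.2%. Among the other genes described here, Clec10a, Ly6c2, H2-DMb1, H2-Eb2, Cxcl16, Il4i1, Rpl37, Hspa1a, Hspa1b, Actb and Dbp were fractional in 100% of these libraries, Fcgr3, H2-Q2 and Rplp2-ps1 in 93.8%, H2-Ab1 and Klk1 in 87.5%, Klrb1c and Dynlt1c in 81.2%, Lss in 62.5% and Itgax in 56.2%. Reads of genes with near-identical copies can be divided between the copies, and these values are uncertain to that extent. Plbd1, a phospholipase B-like protein, and Cd69 were the other lower genes with the smallest p, and the libraries labelled KO overlapped the sham range in Cd69 (57.2 to 129 CPM) and the control tumour range in Plbd1. Plbd1 had 25.5 to 54.2 CPM in the control tumour libraries, 139 to 211 CPM after sham injection and 41.2 to 121 CPM in the libraries labelled KO (log2 difference -2.08 ± 0.13, adjusted p = 8.5e-08). Other large increases were Fam189a2, a membrane protein gene (11.8 to 37.4 CPM against 2.11 to 5.08 CPM, adjusted p = 9.8e-06), and Dynlt1c, a dynein light chain with near-identical copies (medians 15.9 and 4 CPM, adjusted p = 0.029, and 0.082 without sham ZT3 replicate 1). Actb, which encodes beta-actin, had 17440 to 30140 CPM against 11230 to 14370 CPM and 9264 to 11380 CPM in the libraries labelled KO (log2 difference 0.73 ± 0.11, adjusted p = 1.7e-04). Over all genes, tumour cells in libraries labelled KO against sham gave 58 higher (0.485%) and 338 lower (2.83%) genes in limma. This comparison shares the 6 sham libraries with the one reported here. In it, 1 of 42 cell cycle genes, 3 of 29 immediate early genes and 11 of 20 monocyte and macrophage genes were lower. The median log2 difference of the cholesterol synthesis list was 0.30. Control tumour libraries against those labelled KO gave 1837 genes (15.4%) in limma, 754 higher and 1083 lower. The differences between these comparisons were not tested.

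Among the higher genes, Rab21, Akt1, Gna12 and Marcks varied widely within the sham group. Rab21, a small GTPase of endosomes (chr10:115289862-115317419), had 269 to 334 CPM in the 10 tumour libraries, whereas the sham libraries had 48.7, 144 and 137 CPM at ZT3 and 51.2, 57.9 and 77.9 CPM at ZT9 (log2 difference 1.95 ± 0.21, adjusted p = 6.8e-06). Akt1, the kinase downstream of PI3K (chr12:112653821-112674884), had 143 to 218 CPM with tumour cells and 46.4, 133 and 77.8 CPM at ZT3 and 47.9, 44.3 and 63 CPM at ZT9 after sham injection (log2 difference 1.56 ± 0.19, adjusted p = 3e-05). Gna12, a G protein alpha subunit, had 22.8 to 43.3 CPM against 4.43 to 15.6 CPM (adjusted p = 5.3e-06). Marcks, an actin-binding substrate of protein kinase C, had 1618 to 2163 CPM with tumour cells against 603, 1514 and 1664 CPM at ZT3 and 609, 651 and 1004 CPM at ZT9 (log2 difference 1.00 ± 0.20, adjusted p = 0.0018). Sham ZT3 replicates 2 and 3 were the highest sham libraries for each of these genes, and in the libraries labelled KO the range of Rab21 was 51.4 to 261 CPM. Of the 20 genes in the mTOR and AKT list, 6 were higher and 3 lower, against 7.3% and 16.3% of all genes. Akt1 was among the 6 higher genes. Pik3ca, the catalytic subunit of PI3K, was another (35.6 ± 8.96 against 17.9 ± 6.05 CPM, SD, adjusted p = 0.0023).

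**Figure D5:**
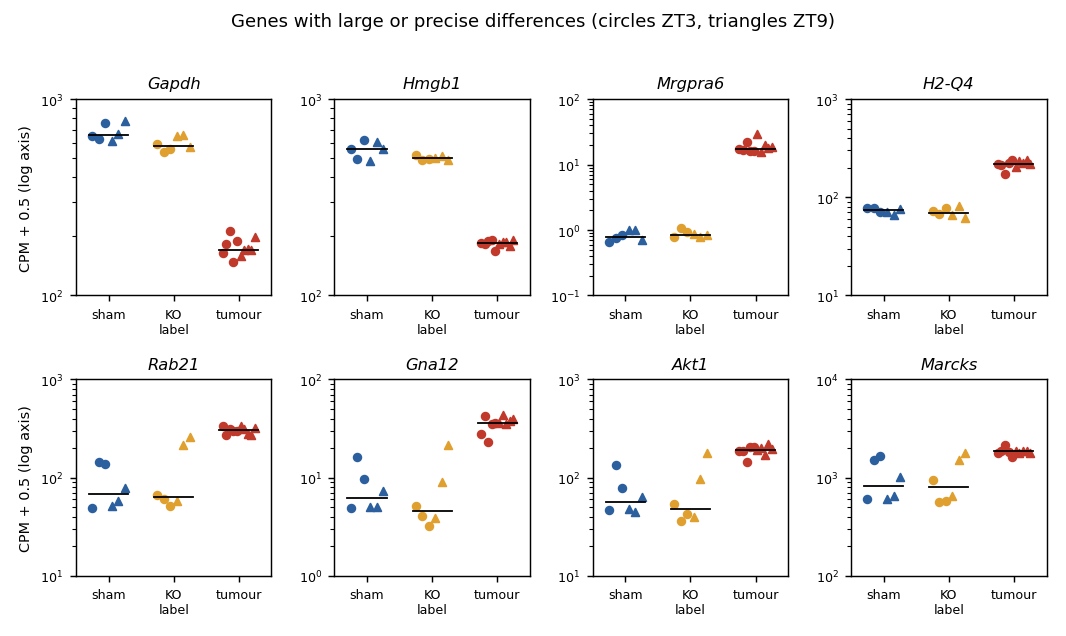
CPM + 0.5 (log axis) of 8 genes with large or precise differences in each light-phase library, for sham mice, libraries labelled KO with tumour cells and control mice with tumour cells, at ZT3 (circles) and ZT9 (triangles), with group medians as lines. Gapdh, Hmgb1, Mrgpra6 and H2-Q4 place the libraries labelled KO at the sham level, and Rab21, Gna12, Akt1 and Marcks spread widely within the sham group (48.7 to 144 CPM for Rab21).

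The difference at each timepoint was also tested, as a contrast in the fit of all 16 libraries, so that the spread at the other timepoint enters each test. At ZT3 1005 genes (8.4%) were called, 161 higher and 844 lower, and at ZT9 1668 genes (13.9%), 602 higher and 1066 lower. Without sham ZT3 replicate 3 the ZT3 count was 507, and without sham ZT9 replicate 2 the ZT9 count was 1012. No gene passed the limma test of the difference between the timepoints (708 at an unadjusted p under 0.05). List medians were close at both timepoints for some lists and apart for others, with no test of the difference. The chemokine receptor list had medians of -1.84 at ZT3 and -2.14 at ZT9, the cell cycle list -0.86 at both, and the immediate early list -0.89 and -1.23. The chemokine ligand list had medians of -0.59 and -1.22 and the plasma cell list, of 6 genes, -1.31 and -0.56. The 3 smallest p of the difference between the timepoints belonged to Haghl, Clec4a1 and Zfp850. Clec4a1, a C-type lectin, had 2.32 to 3.35 CPM in the tumour libraries at ZT3, 0.709 to 1.21 CPM at ZT9 and 5.08 to 5.71 CPM after sham injection (log2 difference -0.88 at ZT3 and -2.02 at ZT9, adjusted p of the interaction = 0.171).

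The dark phase uses other libraries, and it was tested in a fit over all 32 control libraries of both phases, which share 1 estimate of the spread. It gave 758 higher (6.34%) and 1728 lower (14.4%) genes. In that larger fit the light phase had 3135 calls (1031 higher, 2104 lower), so that the shares of calls in common given next, which take the light-phase calls from the fit of 16 libraries, join fits of different size. Of the 2817 light-phase calls, 1716 were called in the dark phase with the same sign, which is 60.9% of the light-phase and 69% of the dark-phase calls, and 1 was called with the opposite sign. The log2 differences of the 2 phases correlated across the 11963 genes (r = 0.812), which are not independent replicates. Depth was lower in the tumour libraries of both phases. No gene passed the limma test of the difference between the phases (676 at an unadjusted p under 0.05). The 3 smallest p were those of Baiap2l1, Hyal3 and Ccr9. Ccr9, a gut-homing receptor of T cells and plasmacytoid DCs, fell by 2.35 in the light phase and by 1.07 in the dark phase on the log2 scale. List medians in the dark phase were -1.30 for chemokine receptors, -0.68 for immediate early genes, -0.73 for cell cycle genes, 0.23 for cholesterol synthesis and 0.20 for the migratory mature DC programme. Of the 25 cholesterol synthesis genes, 2 were called higher and 0 lower in the dark phase, against 9 and 1 in the light phase. For the migratory programme the dark-phase counts were 10 higher and 2 lower. The differences between these counts were not tested.

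Of 18 clock and clock-controlled genes, 8 were lower and none higher (7 lower and 2 higher without tumour ZT3 replicate 3). Arntl, which encodes the clock activator BMAL1, had 11.8 to 24.4 CPM in the control tumour libraries (median 16.7) and 14.2 to 27.3 CPM in the sham libraries (median 22.5). The groups overlapped, and the log2 difference of -0.46 ± 0.16 had an adjusted p of 0.044 in limma, a call that was lost in 12 of the 16 fits without 1 library (adjusted p up to 0.104, without sham ZT3 replicate 1). The libraries labelled KO had 11.5 to 23.9 CPM of Arntl. The gene-level value does not tell transcripts with and without the floxed part apart, and it therefore does not check that label. Per1, a clock repressor, had medians of 15.2 and 13.5 CPM (adjusted p = 0.32) and the output factor Dbp had medians of 31.2 and 29.2 CPM (adjusted p = 0.9).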

How the data were processed

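RNA of sorted lymph node cells was made into SMART-Seq v4 and Nextera XT libraries and sequenced with single reads of 50 bases. Per the study's methods, reads were aligned with STAR to mm10 and counted per gene with HTSeq 0.9.1. The authors scaled the counts to library size and deposited them as CPM, so a count model was not the main test. The test took the 11963 of 14699 genes that reached 1 CPM in 5 or more of the 44 libraries, as log2(CPM + 0.5). A gene could pass this filter without the tumour libraries, or through them alone. Ptgds and Ccr3 stayed under 1 CPM in each light-phase control tumour library. Mrgpra6 stayed under 1 CPM in each light-phase sham library and each light-phase library labelled KO. Differences on this scale understate the change of genes with low values. limma 3.58.1 in R 4.3.3 fitted treatment with timepoint as a covariate to the 16 libraries, and p-values were adjusted by the Benjamini-Hochberg method across these genes, with a threshold of 0.05. p-values measure the spread between these libraries. Of the values, 87.47% to 89.25% per library were whole reads within 0.01, so reads were not recovered for a count test. All columns were mapped to a sample (0 were not).

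Named genes were the 8 largest differences in each direction at a mean of 5 CPM or more, the 4 smallest p in each direction, up to 2 called members of each list in each direction, a fixed set of marker and clock genes, and the 3 smallest p of each interaction, and the text names a selection of these. Some genes are not reported here. Gene models without a name were passed over. The members and lists were chosen with earlier results of these data known. Coordinates and promoters are those of RefSeq for GRCm38.p6, and 101 of 126 genes of the text had a promoter. On simulated data for this comparison (200 of 11963 genes changed), 80% of genes changed by 1 on the log2 scale, 43% of those changed by 0.5 and 0.0595% of unchanged genes were called. Alternatives were another pseudocount, filter, scaling, weighting and replicate block, and leaving out each library. Figures were drawn with Python 3.11.15.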

Additional observations from a re-analysis of the deposited data

Results flagged for a closer look

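In the tumour groups of 5 libraries, 40 of 256 sets of values had a lowest or highest library far from the rest of its group (a gap above 0.71 of the range). For independent values with a normal spread, chance gives about 1 in 20. Most of these sets were CPM values, some near 0, and they share the same libraries, so no excess is read from the count. The sham groups of 3 were not tested. Tumour ZT3 replicate 1 stood apart as high in Il22 (5.81 CPM) and Plk1 (4.96 CPM). Tumour ZT3 replicate 2 stood apart as high in Cma1 (15.9 CPM) and Tpsb2 (19.6 CPM). Tumour ZT3 replicate 3 stood apart as high in Mrgpra6 (21.6 CPM), Rplp2-ps1 (53 CPM), Rpl21 (167 CPM), Rpl37 (242 CPM), H2-Ab1 (3350 CPM), H2-Eb2 (129 CPM), Cd3e (91.7 CPM), Rps28 (303 CPM) and Fabp5 (2700 CPM). Tumour ZT3 replicate 4 stood apart as high in Hspa1a (406 CPM) and Hspa1b (435 CPM) and as low in Isg15 (43.3 CPM) and Ldha (211 CPM). Tumour ZT3 replicate 5 stood apart as low in Fcgr3 (2.27 CPM). Tumour ZT9 replicate 1 stood apart as high in Rpl21 (152 CPM), Batf3 (246 CPM), Mcpt4 (4.78 CPM), Cma1 (5.92 CPM), Cpa3 (6.34 CPM), Tpsb2 (10.1 CPM), Ccl4 (6.58 CPM), Rpsa (1600 CPM) and Nr4a1 (83.1 CPM) and as low in Ncr1 (0 CPM) and Lamp1 (1990 CPM). Tumour ZT9 replicate 2 stood apart as high in Mmp12 (4.41 CPM), Cxcl16 (2550 CPM) and Hspa5 (380 CPM) and as low in Tnfsf11 (0.557 CPM). Tumour ZT9 replicate 3 stood apart as high in Il22 (1.08 CPM). Tumour ZT9 replicate 4 stood apart as high in Samsn1 (1750 CPM), H2-Eb2 (107 CPM), Cd86 (211 CPM) and Csf2 (0.205 CPM) and as low in Dbp (33.5 CPM). Tumour ZT9 replicate 5 stood apart as high in Ccr3 (0.394 CPM). Tumour ZT3 replicate 3, which lay apart on the second principal component, had 9 of these values. Its position on that component did not pass this rule. Tumour ZT9 replicate 1 had 11 of these values, among them the 4 mast cell proteases. The cause was not tested.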

How the results depend on the processing

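No called gene of the text changed direction, whereas the differences of Cd80, Cd86, Flt3 and Haghl, near 0 and not called, crossed 0 in some settings, and that of Dbp without sham ZT9 replicate 1. The 2817 light-phase calls became 1913 to 3444 over 10 other settings, and 2363 (without sham ZT9 replicate 2) to 3459 (without tumour ZT3 replicate 3) when 1 library was left out. Higher genes numbered 1323 with array weights and 653 to 1391 without 1 library, and genes at 2-fold or more numbered 311 at a mean of at least 10 CPM. The ZT3 calls ranged from 507 (without sham ZT3 replicate 3) to 1182 and the ZT9 calls from 1012 (without sham ZT9 replicate 2) to 2122. With all genes of the table, 3 genes differed between timepoints and 2 between phases. Without 1 library these counts were 0 to 1 and 0 to 5 (5 without sham ZT15 replicate 2). With a replicate block there were 482 higher genes, 556 calls at ZT3 and 958 at ZT9. The replicate numbers did not pair the libraries: of 20 pairs with the same number 1 had a correlation over 0.1 (-0.126 to 0.174), and 1 of 16 libraries correlated best with its own number. The setting restricted to genes with whole reads and the list counts without tumour ZT3 replicate 3 were chosen after seeing the data. Of 126 genes of the text, 12 changed their call when 1 library was left out and 15 under at least 1 of the 10 settings. The cause was not tested. Depth split with treatment, and genes near 0 CPM rest on few reads.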
